A study of Homo sapiens with 71 samples.

Results

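FRWI is the code of 1 of 16 river sites whose water was tested on HepG2, an established line from a human hepatoma with many liver cell functions. Its 4 libraries were compared with the 8 libraries of cells kept in purified water, so 12 of the 71 libraries of the series enter the comparison, over all genes measured. The cells of several flasks were pooled, seeded into dishes and grown for 72 hours. For the next 48 hours 75% of the medium was filtered river water in the FRWI dishes and purified water in the control dishes, and nothing else in the labels separates the groups. The dishes are called biological replicates in the labels, but all came from the same pooled cells, so the p values measure the spread between dishes of a single culture. The growth protocol speaks of 16 control dishes, and 8 control libraries are in the series. RNA was read with TempO-Seq, in which 2 short probes lying side by side on an RNA are joined and the joined product is sequenced and counted. Levels are given as CPM, estimated counts scaled to the library's total after TMM adjustment, and changes as log2 values of FRWI minus the controls with their standard errors. A gene is called where its Benjamini-Hochberg adjusted p in edgeR's quasi-likelihood test is under 0.05. The table used here runs alphabetically to just before RAI14, and symbols after it were not analysed here.

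Cells in river water can meet metals, organic chemicals and a changed salt and nutrient supply. Metals, zinc above all, act through the transcription factor MTF1 and switch on metallothioneins, small cysteine-rich proteins that hold metal ions. Aldehydes and other electrophiles act through NRF2 on reductases and glutathione genes, flat aromatic compounds act through the receptor AHR on CYP1A1, and changes in cell shape and tension act through YAP and TEAD on genes such as ANKRD1 and CCN2.

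Promoters of the metallothionein genes MT2A, MT1G and MT1M and of the YAP targets ANKRD1 and CCN2 were looked up in the RefSeq table (build GRCh38.p14). MT1G and MT1M had no entry, and other members of these groups were not looked up. The sequences of MT2A, ANKRD1 and CCN2 are shown as background, and of these only ANKRD1 was called against the controls. Each run holds the 250 bases before the start of the gene's RefSeq entry, 5′ to 3′ on the gene's strand, and capitals mark matches on either strand. In MT2A, at chr16:56608334-56608583 on the plus strand, capitals mark the core of the metal response element that MTF1 binds (TGCGCNC or TGCACNC, 7 matches). In ANKRD1, at chr10:90921088-90921337 on the minus strand, and CCN2, at chr6:131951373-131951622 on the minus strand, they mark the core of the TEAD motif, CATTCC, which reads GGAATG on the other strand (2 and 3 matches).
MT2A: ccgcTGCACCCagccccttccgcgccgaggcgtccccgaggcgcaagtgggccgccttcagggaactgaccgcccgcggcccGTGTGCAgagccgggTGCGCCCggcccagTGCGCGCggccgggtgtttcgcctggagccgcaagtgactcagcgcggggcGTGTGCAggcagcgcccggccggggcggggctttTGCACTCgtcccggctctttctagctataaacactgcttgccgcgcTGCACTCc
ANKRD1: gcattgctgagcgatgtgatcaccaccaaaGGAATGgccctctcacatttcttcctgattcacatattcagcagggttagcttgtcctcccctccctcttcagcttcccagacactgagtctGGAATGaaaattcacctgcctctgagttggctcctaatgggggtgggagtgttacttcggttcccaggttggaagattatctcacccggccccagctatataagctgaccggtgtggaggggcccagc
CCN2: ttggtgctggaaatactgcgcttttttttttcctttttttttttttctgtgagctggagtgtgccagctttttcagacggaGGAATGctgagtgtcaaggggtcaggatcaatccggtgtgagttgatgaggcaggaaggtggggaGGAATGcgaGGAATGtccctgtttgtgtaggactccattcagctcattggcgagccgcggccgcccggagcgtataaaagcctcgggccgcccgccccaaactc
Of all 35116 promoters of the same length in the table, 24.8% held the metal response element core and 11.9% the TEAD core. The GENCODE positions used elsewhere in the text give other starts for MT2A and ANKRD1. By them the whole MT2A window lies inside the gene (chr16:56608199-56609497). Part of the ANKRD1 window also lies inside its gene (chr10:90912096-90921276). The CCN2 window meets the GENCODE start of CCN2 at 131951373. The matches are a description of these windows, and binding was not measured.

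Total counts in the part of the table used lay between 8.18 and 14.5 M (M, 1e6 counts) in the controls and were 8.67, 7.78, 4.45 and 3.79 M in FRWI 1 to FRWI 4, so the controls were sequenced more deeply. Liver cell identity was plain in both groups. Of 13 hepatocyte markers 12 had counts, and the other, TTR, comes after RAI14 and was not analysed. The summed level of the 12 overlapped (138400 to 194800 CPM in the controls, 162100 to 183400 CPM in FRWI). FRWI 1 stood apart from the other 3 FRWI libraries: 166 of 3586 well-measured features lay at least 1 log2 unit below their mean over the other FRWI libraries, against 2, 27 and 12 in FRWI 2, FRWI 3 and FRWI 4. Control 1 had 81 such features against 0 to 5 in the other controls, and 72 were in both sets, which is 43.4% of the FRWI 1 set and 88.9% of the control 1 set. None of these features was called between FRWI and the controls. They were picked for a wide spread within a group, which by itself makes a call less likely. The absence of calls therefore does not show that FRWI 1 and control 1 left the other calls unaffected.

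FRWI water changed 151 of 6916 features tested (2.18%) against purified water, 74 upward (1.07%) and 77 downward (1.11%). The changes were small: the median size among the called genes was 0.557 on the log2 scale, the extremes were a fall of 2.67 for ARMH1 and a rise of 1.08 for NR4A1, and 18 genes reached 1 in either direction. The genes that rose tended to be abundant and those that fell scarce. Above 100 CPM 41 genes rose and 10 fell, while below 5 CPM 3 rose and 22 fell. In 93 of the called genes the FRWI and control libraries did not overlap (44 higher and 49 lower), against 266 of all features (3.85%), 141 higher (2.04%) and 125 lower (1.81%). The genes were called on these same libraries, which by itself makes a lack of overlap more likely. Depth differed between the groups, and with the controls thinned to the FRWI depth the count was 154.

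The count rested on the libraries that set the spread and on FRWI 2 and FRWI 4. It fell to 10 without FRWI 2 and to 17 without FRWI 4, was 75 without FRWI 1 and rose to 295 without FRWI 3. Leaving out a single control moved it to between 70 (control 2) and 245 (control 7), with 90 without control 5. The fit leaves out 3 libraries of other sites, VROH 2, CRMI 1 and SRMI 3. They were known from an earlier account of these data to stand apart from their groups. With VROH 2 alone left out 23 genes were called. With all 71 libraries 5 genes were called, all lower: C1RL, AMY2A, CCDC159, KRCC1 and CFAP70. With the 12 libraries of FRWI and the controls alone 274 genes were called. In each of the 12 omissions of a single FRWI or control library all 151 genes kept their direction. They had been called on these same libraries, so a change of sign was unlikely from the start. In every one of the omissions 8 were called: MT1G, AKR1B10 and PPM1H rose, and C1RL, AMY2A, ARMH1, HDHD2 and HSD17B8 fell. The other 143 lost their call without FRWI 2 or without FRWI 4.

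**Figure D1:**
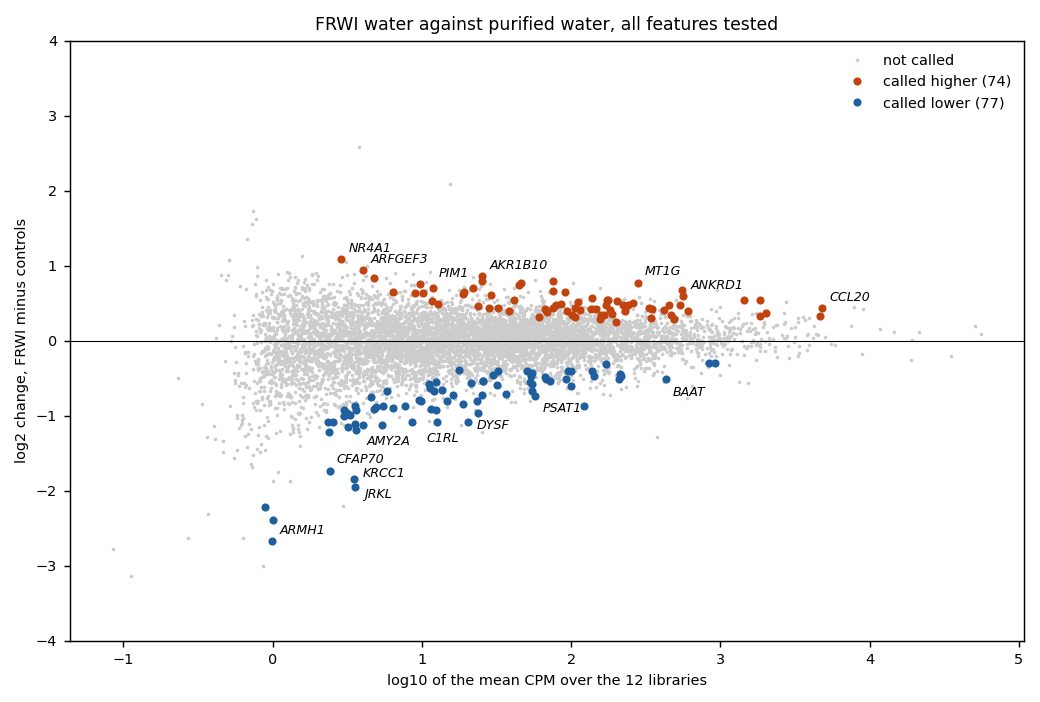
Log2 change between FRWI and control libraries (y axis) against the log10 of the mean CPM over the 12 libraries (x axis) for the features tested; 8 features lie beyond the plotted range. Orange points are the 74 genes called higher and blue points the 77 called lower, with the blue points mostly on the left, at low CPM, and the orange points mostly in the middle and on the right.

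**Figure D2:**
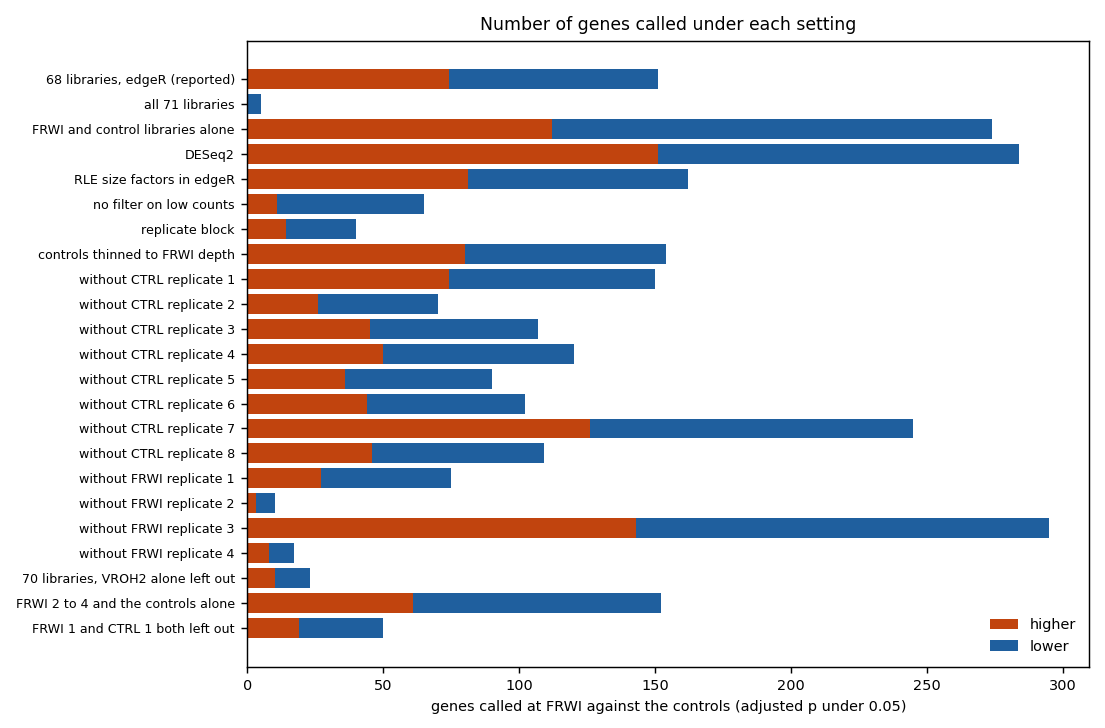
Number of genes called between FRWI and the controls under each setting (bars, orange for higher and blue for lower). The count reported is 151, and it runs from 5 with all 71 libraries to 295 without FRWI 3.

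Metallothioneins were the group with the largest median change. All 7 of the tested members of the list lay above 0, with a median of 0.69 against 0.00 over all features. Called were 2, MT1G and MT1M, against 2.18% of all features. MT1G (chr16:56666731-56668065, minus strand, GENCODE 29 on GRCh38) had 415, 370, 353 and 402 CPM in FRWI 1 to FRWI 4, and the controls had a lowest value of 184, a median of 221 and a highest of 293 CPM. The groups did not overlap, and MT1G rose by 0.77 ± 0.12 (adjusted p = 1.41e-04). MT1M had 25.3, 25.1, 28.5 and 19.6 CPM in the FRWI libraries and 10.3 to 22.1 CPM, median 15.2, in the controls. Here only FRWI 4 lay within the control range, and the rise was 0.63 ± 0.15 (adjusted p = 0.0184, or 0.0862 without FRWI 2). MT2A did not overlap between the groups, with 19.9, 11.8, 13.4 and 14.4 CPM against 6.06 to 10.4 CPM (median 9.02), but its change of 0.79 ± 0.24 did not pass in edgeR (adjusted p = 0.0615) and passed in DESeq2 (adjusted p = 0.0336). MT1E, another isoform, had means of 14.4 CPM in the controls and 15.1 CPM in FRWI (log2 change 0.04, adjusted p = 0.925). The metallothionein genes are near-identical in sequence, and reads of 1 member could be counted to another.

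Among the 16 waters the MT1G level at FRWI lay in the middle. Of the 15 other site means 8 were below it, and its difference from the mean of the other sites was -0.04 ± 0.10 (adjusted p = 0.868). Site means ran from 243 CPM at MIWI to 833 CPM at BRWI, with LRMN at 782 CPM, and all 16 were above the control mean of 225 CPM. MT1M was lower at FRWI than at the mean of the other sites by 0.41 ± 0.13 (adjusted p = 0.0317), with 4 sites below it.

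AKR1B10 was the called gene of the NRF2 list, and it was called in all 12 omissions. It encodes an aldo-keto reductase that reduces retinal and other aldehydes. The FRWI libraries had 34.8, 37.6, 30.9 and 42.1 CPM and the controls 16.2 to 24.2 CPM, median 19.6, with no overlap. The rise was 0.86 ± 0.17 (adjusted p = 0.00449), and its highest adjusted p over the omissions was 0.0424, without FRWI 2. The FRWI mean of 36.3 ± 4.72 CPM (SD, n = 4) was above all 15 other site means, but CROH, the next site, was at 35.3 ± 10.4 CPM (SD, n = 4). Against the mean of the other sites AKR1B10 was higher by 0.78 ± 0.14 (adjusted p = 2.54e-04). It has close relatives in the genome whose reads could be shared with it. Of the 20 tested NRF2 genes 1 rose and 0 fell, against 1.07% and 1.11% of all features, with a median of 0.15. Above 0 were 18 of them, against 3467 of all 6916 features, and 8 had an unadjusted p under 0.05. HMOX1, heme oxygenase, changed by 0.05 ± 0.11 and NQO1, a quinone reductase, by 0.22, and neither passed (adjusted p = 0.855 and 0.144). CYP1A1, the marker of AHR activity, had 64.9, 108, 101 and 133 CPM in FRWI against 57.3 to 97.0 CPM in the controls, and its change of 0.41 ± 0.38 did not pass (adjusted p = 0.575). Of the 4 tested AHR list members edgeR called 0 and DESeq2 0, with 3 at an unadjusted p under 0.05. Over all features 1406 of 6916 had an unadjusted p under 0.05.

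C1RL, a serine protease related to complement C1r, had the clearest fall. Its FRWI libraries had 7.74, 7.08, 7.08 and 6.79 CPM, and the controls 13.8 to 17.3 CPM with a median of 15.2. The 4 FRWI values lay close together, well under every control, and the fall was 1.09 ± 0.18 on the log2 scale (adjusted p = 3.22e-04). C1RL (chr12:7089587-7109273, minus strand) was called with all 71 libraries too (adjusted p = 6.85e-04). The FRWI mean was also below all 15 other site means, of which VROH was the lowest at 9.53 ± 2.10 CPM (SD, n = 3), and FRWI differed from the mean of the other sites by -1.001 ± 0.16 (adjusted p = 4.29e-05). C1RL was not in the complement and coagulation list, of which edgeR called 0 of 29 tested genes and DESeq2 0, with 4 at an unadjusted p under 0.05 and a median of -0.06.

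The other 4 genes that fell in all 12 omissions were AMY2A, HSD17B8, HDHD2 and ARMH1. AMY2A, pancreatic amylase, had 3.47, 3.09, 3.07 and 2.17 CPM in FRWI and 3.68 to 8.68 CPM, median 6.71, in the controls. It fell by 1.13 ± 0.23 (adjusted p = 0.00449), and near-identical amylase copies could share its reads. AMY2A had 557 counts over the 8 controls and 75 counts over the 4 FRWI libraries. Such sums are not scaled to depth or to the number of libraries. HSD17B8, a mitochondrial enzyme of estradiol and fatty acid metabolism, had 17.3, 14.2, 14.9 and 11.7 CPM against 25.3 to 32.4 CPM and fell by 0.97 ± 0.19. HDHD2, a predicted hydrolase, had 8.32, 9.27, 7.31 and 8.15 CPM against 11.2 to 14.4 CPM. ARMH1 had 5 counts over the FRWI libraries and 115 over the controls, so its change of -2.67 ± 0.52 rests on few counts. PPM1H, a phosphatase that acts on Rab proteins, was the remaining rise, with 559, 559, 538 and 581 CPM against 324 to 475 CPM and a change of 0.47 ± 0.09. HSD17B8, HDHD2, ARMH1 and PPM1H are outside the naming rule and were chosen after their values were seen.

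**Figure D3:**
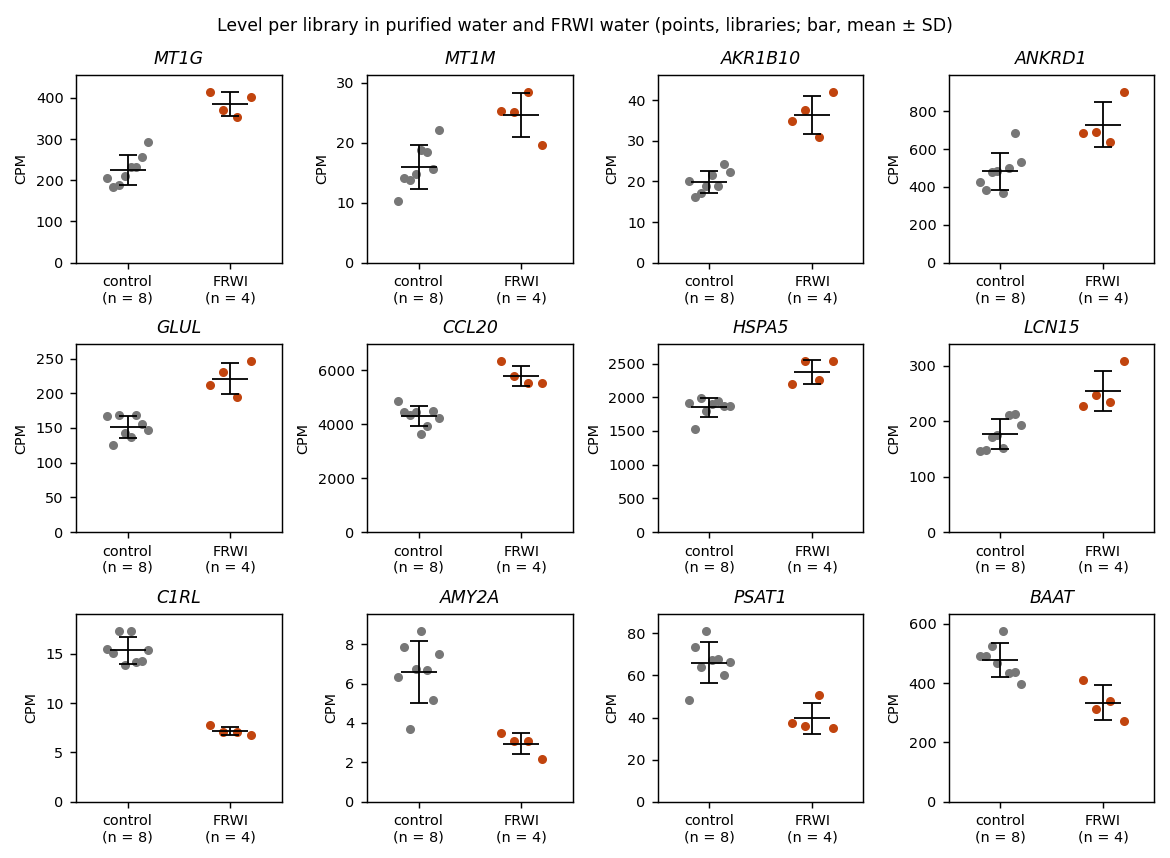
CPM in each control library (grey, n = 8) and FRWI library (orange, n = 4) for 12 genes, with bars for the mean and SD; all y axes start at 0. The groups do not overlap for MT1G, AKR1B10, GLUL, CCL20, HSPA5, LCN15, C1RL and AMY2A, and they overlap for MT1M, ANKRD1, PSAT1 and BAAT.

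Among YAP and TEAD targets ANKRD1 and ASAP1 rose against purified water. ANKRD1, a nuclear and sarcomeric ankyrin repeat protein used as a YAP readout, had 683, 688, 640 and 903 CPM in FRWI and 369 to 683 CPM, median 483, in the controls. Control 7 lay above FRWI 3 and the other controls lay below all FRWI libraries, and the rise was 0.59 ± 0.16 (adjusted p = 0.0358, or 0.217 without FRWI 4). Against the mean of the other sites ANKRD1 was higher by 1.22 ± 0.12 (adjusted p = 6.67e-10), the smallest adjusted p of that comparison. The site means spanned 145 CPM at SRMI to 701 CPM at LRMN. Sites SRMI, MAWI, ORNY, CRMI, GRMI, IHIN, MIWI, MROH and RRMI were below the control mean of 483 CPM, and VROH, CROH, GRNY, BRWI, JRMI, LRMN and FRWI above it. FRWI was the highest at 729 ± 119 CPM (SD, n = 4), and LRMN, JRMI, BRWI, GRNY and CROH lay within 1 SD of it.

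CCN2, a secreted matricellular protein and another YAP target, had 472, 550, 398 and 393 CPM in FRWI against 258 to 485 CPM in the controls (median 290). Control 7 alone reached the FRWI values, and the change of 0.53 ± 0.18 did not pass (adjusted p = 0.0884), while against the other sites CCN2 was higher by 0.90 ± 0.14 (adjusted p = 4.29e-05). Its FRWI mean of 453 CPM was below those of LRMN (739 CPM), GRNY (541.5 CPM) and JRMI (461 CPM) and above the other 12. CCN1 was near 2.74 CPM in both groups. Of the 18 YAP and TEAD targets tested, edgeR called 2 higher (ANKRD1 and ASAP1) and 0 lower against the controls, with a median of 0.24. Over all features edgeR called 1.07% higher and 1.11% lower. DESeq2 called 5 of the targets higher, against 151 of the 6916 features. Against the mean of the other sites 9 were higher and 0 lower: AMOTL2, ANKRD1, ASAP1, AXL, CCN2, DLC1, IGFBP3, LATS2 and PTPN14, with a median of 0.29. Over all features that comparison called 835 (12.1%), 567 higher (8.2%) and 268 lower (3.88%).

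Of the remaining genes with the strongest difference from the other sites, LCN15, a secreted lipocalin, had 228, 247, 236 and 309 CPM in FRWI and 147 to 213 CPM, median 173, in the controls, with no overlap. It rose by 0.53 ± 0.15 (adjusted p = 0.0422, or 0.227 without FRWI 4), and was above the mean of the other sites by 0.93 ± 0.12 (adjusted p = 2.53e-07) and above all 15 of their means, of which VROH was the nearest at 227 ± 29.2 CPM (SD, n = 3). LAP3, a leucine aminopeptidase, had 649, 700, 606 and 681 CPM against 406 to 601 CPM, a rise of 0.47 ± 0.09 (adjusted p = 0.00449, or 0.0515 without FRWI 2) and a difference of 0.52 ± 0.08 from the mean of the other sites. LRMN at 900.4 CPM and GRNY at 666.5 CPM had LAP3 means above the 659 CPM of FRWI. ANXA2, a membrane-binding annexin, was at 1541 to 1882 CPM in FRWI and 1254 to 1514 CPM in the controls. Its groups did not overlap but the change of 0.23 ± 0.08 did not pass against the controls (adjusted p = 0.092). Against the other sites it was higher by 0.47 ± 0.07 (adjusted p = 5.68e-06). Of the 151 genes called against the controls 17 were above all 15 other site means and 20 below all 15, against 315 (4.55%) and 250 (3.61%) of all features. The same FRWI libraries set the calls and these ranks, so the larger shares among called genes are partly set by how the genes were chosen.

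**Figure D4:**
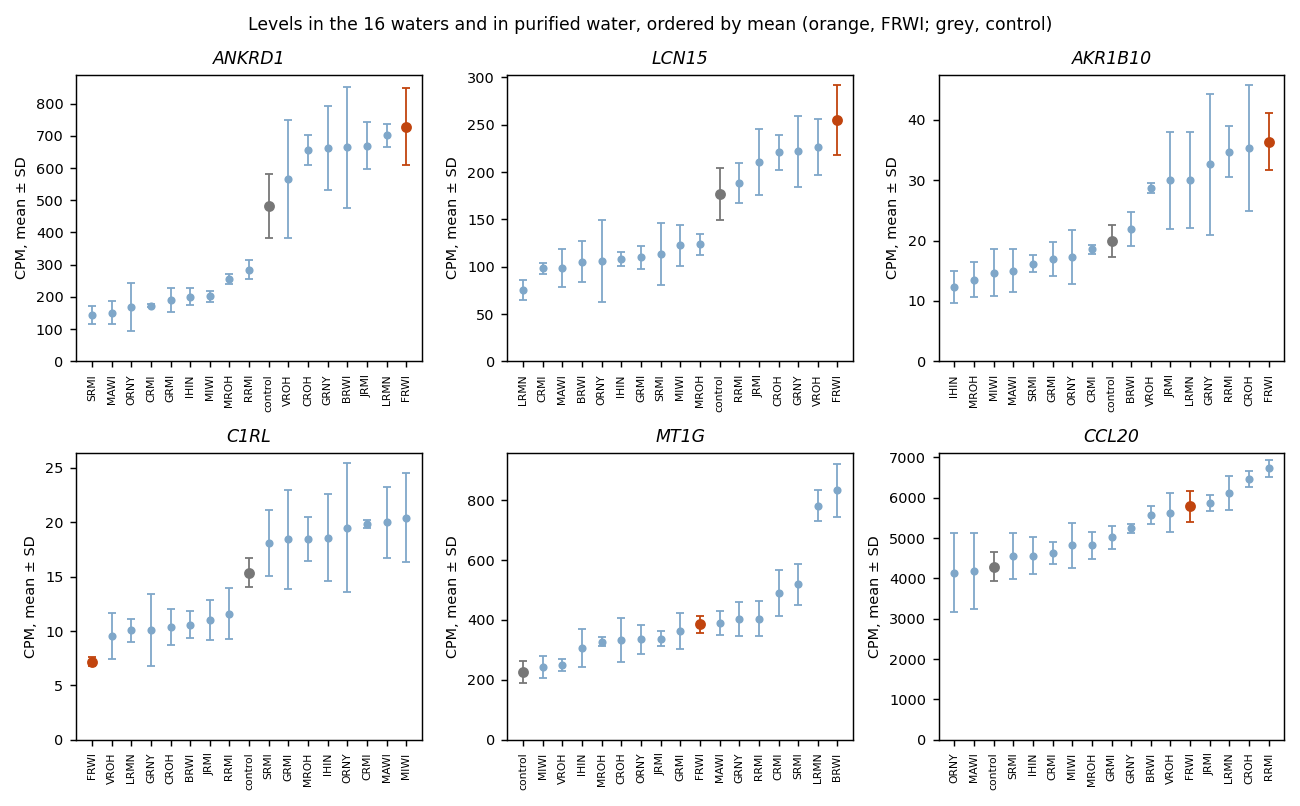
Mean CPM ± SD over the libraries of each water and of purified water (grey), ordered by mean from left to right, for 6 genes, with FRWI in orange. FRWI is the highest water for ANKRD1, LCN15 and AKR1B10 and the lowest for C1RL, but lies inside the range for MT1G and CCL20.

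GLUL, glutamine synthetase, a beta-catenin target of the liver, and AXIN2, a feedback inhibitor of WNT signalling, rose in FRWI water. GLUL had 212, 231, 195 and 246 CPM against 125 to 169 CPM (median 151), with no overlap. Its rise was 0.55 ± 0.12 against the controls (adjusted p = 0.00874, or 0.0881 without FRWI 4) and its difference from the mean of the other sites was 0.60 ± 0.09 (adjusted p = 4.29e-05). The FRWI mean of 221 CPM was below those of LRMN (243.5 CPM), CROH (234 CPM) and JRMI (227 CPM). AXIN2 had 98.5, 91.6, 63.9 and 73.1 CPM against 53.8 to 69.6 CPM, a rise of 0.39 ± 0.11 (adjusted p = 0.0436, or 0.207 without FRWI 1), with FRWI 3 inside the control range. Of the 11 tested WNT and beta-catenin targets these 2 rose and 0 fell, against 1.07% and 1.11% of all features, with a median of 0.32. LGR5, DKK1 and NOTUM, further targets of the pathway, changed by 0.38, -0.04 and 0.13 and did not pass (adjusted p = 0.733, 0.968 and 0.641). FRAT2, which binds the kinase GSK3, had 27.3, 35.0, 22.9 and 33.7 CPM against 17.2 to 19.8 CPM and rose by 0.70 ± 0.17 (adjusted p = 0.0195, or 0.115 without FRWI 2). CTNNB1, beta-catenin itself, named after its values were seen, had 492 to 525 CPM against 298 to 434 CPM and rose by 0.41 ± 0.11 (adjusted p = 0.0379, or 0.125 without FRWI 4). Neither is in the list.

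Among 24 tested bile acid and nuclear receptor genes 4 were called higher, NR5A2, NR2F1, FOXA1 and ONECUT1, and 1 lower, BAAT, with a median of 0.11. The shares over all features were 1.07% higher and 1.11% lower. NR5A2 (LRH-1), a nuclear receptor of bile acid and cholesterol genes, had 34.1, 42.5, 34.9 and 39.7 CPM against 18.6 to 32.4 CPM and rose by 0.60 ± 0.15 (adjusted p = 0.0278, or 0.131 without FRWI 2). FOXA1, a pioneer factor of liver genes, rose by 0.41 ± 0.11 (adjusted p = 0.0322, or 0.138 without FRWI 2), the nuclear receptor NR2F1 by 0.44 ± 0.12 (0.135 without FRWI 1), and ONECUT1, also called HNF6, by 0.43 ± 0.11 (0.138 without FRWI 2). BAAT, which joins bile acids to glycine or taurine, had 412, 312, 341 and 273 CPM against 399 to 577 CPM (median 480). Only FRWI 1 lay within the control range, and the fall was 0.52 ± 0.11 (adjusted p = 0.0115, or 0.112 without FRWI 4). Of the receptors that sense bile acids and drugs, NR1H4 (FXR) changed by -0.10 and NR1I2 (PXR) by -0.16, and neither passed (adjusted p = 0.565 and 0.663).

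Immediate early genes, which growth factors and stress switch on within minutes, had 4 members called higher and 0 lower of 31 tested. Over all features 1.07% were called higher and 1.11% lower. The median of the list was 0.26. NR4A1, an orphan nuclear receptor, had the largest rise of all called genes, 1.08 ± 0.30 (adjusted p = 0.0369, or 0.205 without FRWI 4). Its level was low, with 4.39, 4.12, 2.83 and 6.52 CPM in FRWI against 0.95 to 3.83 CPM in the controls, and FRWI 3 lay inside the control range. PIM1, a growth-promoting kinase, had 53.6, 36.0, 19.8 and 31.8 CPM against 15.4 to 28.9 CPM. FRWI 1 was far above the rest and FRWI 3 within the controls, and the rise of 0.80 ± 0.22 (adjusted p = 0.0422) was lost without FRWI 1 (adjusted p = 0.263). JUND, a subunit of AP-1, rose by 0.47 ± 0.13 (adjusted p = 0.0477, or 0.239 without FRWI 4) and HBEGF, a ligand of the EGF receptor, by 0.39 ± 0.11 (adjusted p = 0.0339, or 0.112 without FRWI 4). FOS, EGR1 and MYC changed by -0.16, 0.13 and 0.05 and did not pass (adjusted p = 0.728, 0.917 and 0.70). EDN1, endothelin-1, which is not in the list, had 73.5, 108, 117 and 119.5 CPM against 47.7 to 76.8 CPM and rose by 0.79 ± 0.21 (adjusted p = 0.0339, or 0.155 without FRWI 4).

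**Figure D5:**
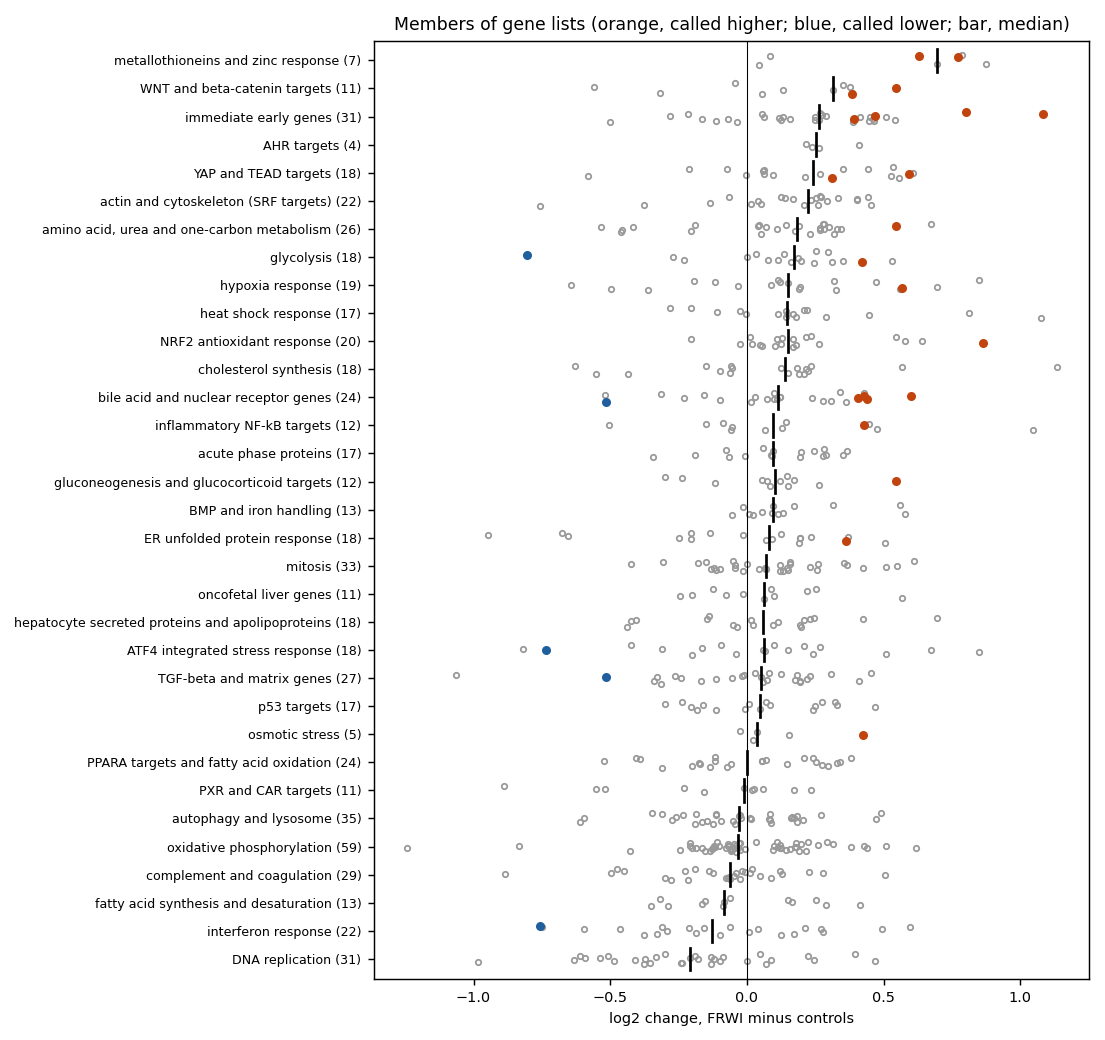
Log2 change between FRWI and the controls (x axis) for the tested members of each gene list (rows, number of tested members in brackets); orange, called higher; blue, called lower; open, not called; black bar, median. The metallothionein list has the highest median (0.69) and the DNA replication list the lowest (-0.21).

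CCL20, a chemokine that draws CCR6-bearing lymphocytes and dendritic cells, was an abundant gene that rose: 6334, 5777, 5517 and 5510 CPM in FRWI against 3649 to 4847 CPM, median 4389, in the controls. The groups did not overlap, and the rise was 0.43 ± 0.09 (adjusted p = 0.00978, or 0.0515 without FRWI 2). It was the single called member of 12 tested NF-kB targets, whose median was 0.10. For this list and the interferon list below, the shares over all features were 1.07% higher and 1.11% lower. CCL20 was as high at several other sites, up to 6725 CPM at RRMI, and its difference at FRWI from the mean of the other sites was 0.16 ± 0.08 (adjusted p = 0.159). Among 22 interferon response genes 0 rose and 1 fell, GBP1, an interferon-induced GTPase (4.16, 2.57, 2.36 and 3.26 CPM against 3.70 to 6.66 CPM; -0.76 ± 0.20, adjusted p = 0.0318, or 0.138 without FRWI 2).

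HSPA5 (BiP), the main chaperone of the endoplasmic reticulum, had 2202, 2535, 2254 and 2534 CPM against 1523 to 1988 CPM, median 1884. It rose by 0.36 ± 0.09 (adjusted p = 0.0282, or 0.139 without FRWI 4) and was above the other sites by 0.49 ± 0.08 (adjusted p = 3.96e-05), but 1 of 18 tested members of the unfolded protein list was called. DDIT3, the stress factor CHOP, changed by -0.17 ± 0.10 (adjusted p = 0.379). PSAT1, which makes serine, had 37.3, 36.0, 50.7 and 34.8 CPM against 48.2 to 81.3 CPM (median 66.9) and fell by 0.74 ± 0.17 (adjusted p = 0.0145, or 0.0937 without FRWI 4). It was the called member of 18 tested ATF4 genes, whose median was 0.06. For this list and the unfolded protein list, the shares over all features were 1.07% higher and 1.11% lower. ASNS, asparagine synthetase, differed widely between libraries of 1 group, with 6.70, 14.9, 30.2 and 56.8 CPM in FRWI and 16.8 to 70.7 CPM in the controls. It was in the set that was low in FRWI 1, and its change of -0.82 ± 0.45 did not pass (adjusted p = 0.303).

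In sugar and lipid metabolism GPD1, which makes glycerol 3-phosphate, fell and PGAM1, an enzyme of lower glycolysis, rose. GPD1 had 9.70, 5.79, 6.37 and 4.08 CPM against 10.0 to 14.1 CPM with no overlap, a fall of 0.80 ± 0.19 (adjusted p = 0.0195, or 0.131 without FRWI 4). PGAM1 had 190, 187, 156 and 175 CPM against 104 to 154 CPM, a rise of 0.42 ± 0.11 (adjusted p = 0.0331, or 0.131 without FRWI 2). Of 18 tested glycolysis genes edgeR called these 2, where 1.07% of all features were called higher and 1.11% lower. DESeq2 called 4 of the 18, against 284 of the 6916 features. CA9, a carbonic anhydrase switched on by hypoxia, was the called member of 19 tested hypoxia genes (0.57 ± 0.16, adjusted p = 0.0436, or 0.164 without FRWI 2).

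LYZ, lysozyme, had 2737, 2531, 1733 and 2285 CPM against 1392 to 1990 CPM and rose by 0.54 ± 0.15 (adjusted p = 0.0416, or 0.154 without FRWI 1). LYZ is on the immune marker list, of which 10 of 12 had counts. Their summed level was 1637 to 2215 CPM in the controls and 1990.0 to 2925 CPM in FRWI, and without LYZ at most 264 and 257 CPM. PTPRC and MS4A1, which define leukocytes and B cells, were at 0 in all 12 libraries. Summed fibroblast, endothelial and squamous markers overlapped between the groups. In bulk RNA fewer cells of a kind and less RNA per cell cannot be told apart.

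In 17 of the pathway lists, with 361 different tested genes, edgeR called 0. Of these genes 67 had an unadjusted p under 0.05, against 1406 of all 6916 features tested. DESeq2 called 8 of the 361, against 284 of the 6916 features. They were ACAA2, ACLY, ACTG1, ATP5MF, IREB2 and PLIN2 higher and ACSL1 and CYCS lower. The lists were those of DNA replication (31 tested, median -0.21), mitosis (33, 0.07), p53 targets (17, 0.05), oxidative phosphorylation (59, -0.03), PPARA targets and fatty acid oxidation (24, 0.00), cholesterol synthesis (18, 0.14), fatty acid synthesis (13, -0.08), PXR and CAR targets (11, -0.01), heat shock (17, 0.15), iron handling (13, 0.10), acute phase (17, 0.10), secreted proteins and apolipoproteins (18, 0.06), oncofetal genes (11, 0.06), autophagy and lysosome (35, -0.03) and actin and cytoskeleton (22, 0.22), besides the AHR and complement lists. ALB, albumin, changed by 0.09 ± 0.17 and HAMP, the iron hormone hepcidin, by 0.01 ± 0.20 (adjusted p = 0.809 and 0.993). PLIN2, the coat protein of lipid droplets, changed by 0.30 ± 0.09 (adjusted p = 0.0511), and CPT1A, the gate of fatty acid oxidation, by 0.15 ± 0.20 (adjusted p = 0.729). MKI67, present in dividing cells, had 84.4, 81.1, 77.1 and 63.8 CPM against 46.8 to 65.6 CPM, and its change of 0.36 ± 0.14 did not pass (adjusted p = 0.14), nor did that of CDKN1A, the cell cycle inhibitor p21 (0.33 ± 0.35, adjusted p = 0.634).

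The naming rule gave further rises of genes with other functions. GPR146, an orphan receptor linked to blood cholesterol, rose by 0.77 ± 0.19 with 68.2, 79.7, 46.0 and 59.0 CPM against 28.0 to 49.7 CPM. APH1A, a subunit of gamma-secretase, had 72.2, 62.4, 43.4 and 66.3 CPM against 22.0 to 52.6 CPM. C1QBP, a mitochondrial matrix protein, had 750, 754, 577 and 874 CPM against 300 to 599 CPM. In these 3 genes FRWI 3 lay inside the control range. IPO4, a nuclear import receptor, had 12.4, 14.9, 12.3 and 13.6 CPM against 5.79 to 10.4 CPM, and ARFGEF3, related to Arf exchange factors, 6.70, 5.02, 7.31 and 4.89 CPM against 1.74 to 4.04 CPM, both without overlap. The peptidase ANPEP, the transcriptional regulator IRF2BPL, the endosomal GTPase RAB5C and MADD, an exchange factor for Rab proteins, rose by between 0.65 (RAB5C) and 0.84 (MADD). PPL, periplakin, rose by 0.65 ± 0.17 without overlap. DSP and EPPK1, the related cytolinkers desmoplakin and epiplakin, named after their values were seen, rose by 0.55 ± 0.14 and 0.53 ± 0.14. The calls of all these genes were lost in at least 1 omission of an FRWI library.

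The largest falls above 2 CPM were of scarce transcripts. Counts given for them are sums over the 4 FRWI or the 8 control libraries, not scaled to depth or to the number of libraries. KRCC1 had 30 counts over the FRWI libraries and 383 over the controls, and fell by 1.85 ± 0.38 (adjusted p = 0.00692, or 0.0773 without FRWI 2). CFAP70, a protein of cilia and flagella, had 24 counts against 266 and fell by 1.73 ± 0.38 (adjusted p = 0.0115, or 0.0881 without FRWI 4). JRKL had 26 counts against 365 and fell by 1.96 ± 0.52, with FRWI 3 at 1.65 CPM and FRWI 4 at 3.26 CPM inside the control range. BRIP1, a helicase partner of BRCA1, fell by 1.21 ± 0.32 and ERCC6L, a helicase of mitotic chromosomes, by 1.15 ± 0.29. MON2, a Golgi trafficking protein, NAP1L5, BEX2, FAM229B and C9orf116 fell by between 1.08 and 1.19. Better counted were DYSF, dysferlin, which reseals membranes, and AMDHD1, an enzyme of histidine breakdown. DYSF had 8.89, 12.2, 15.3 and 10.6 CPM against 19.6 to 30.8 CPM and fell by 1.08 ± 0.28 (adjusted p = 0.0278, or 0.125 without FRWI 4). AMDHD1 had 4.27, 3.99, 5.43 and 6.25 CPM against 8.32 to 13.7 CPM and fell by 1.08 ± 0.24 (adjusted p = 0.0115, or 0.0902 without FRWI 2). COL6A1, a chain of collagen VI, was the called gene of 27 tested TGF-beta and matrix genes, with 55.7, 48.6, 52.4 and 53.2 CPM against 63.1 to 95.3 CPM and a fall of 0.52 ± 0.13 (adjusted p = 0.0278, or 0.112 without FRWI 4). MRPS6, a mitochondrial ribosomal protein, was the called member of the 5 tested osmotic stress genes, with a rise of 0.42 ± 0.11 (adjusted p = 0.0336, or 0.112 without FRWI 4), and its difference from the mean of the other sites was -0.04 ± 0.10 (adjusted p = 0.816). Beside these 2 lists, 1.07% of all features were called higher and 1.11% lower.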

How the data were processed

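For 71 HepG2 libraries the authors deposited expected counts, that is estimated reads per gene, in a table named as normalized. Per the submitters' processing notes Salmon and the genome build GRCh38 were used; the version, the probe positions and any scaling are not stated there. In each library 1 read was worth 0.992 to 1.00, and of the values below 20 a median of 93.4% were whole multiples of it to within 0.02, so they were used as counts. The part held has 31012 complete entries (14 date-like symbols, 11631 starting with LOC) up to RAI14; 12425 had counts. After rounding they were fitted in R 4.3.3 with edgeR 4.0.16 (TMM, filterByExpr with a minimum count of 10, quasi-likelihood test, Benjamini-Hochberg over 6916 features) over 68 libraries and 17 groups, leaving out VROH 2 (0.00884 M counts), CRMI 1 and SRMI 3. Residual degrees of freedom were 51, and the common BCV (biological coefficient of variation) was 0.199. FRWI was compared with the controls and with the unweighted mean of the 15 other sites. CPM are counts over TMM-adjusted totals.

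Named genes were the 15 largest rises and 15 largest falls among called genes with all FRWI libraries on 1 side of the control mean and a mean of at least 2 CPM, up to 4 called members per list by p, the 6 smallest adjusted p values against the other sites, and genes fixed whatever their values. The members, the 38 lists and the rule were chosen with earlier results of these data known. Lists carry no test. The values of 1 gene that met the rule are not reported here. The procedure was tested on simulated data. Alternatives were DESeq2 1.42.0, RLE scaling, no filter, other sets of libraries, a replicate block, thinned controls and single omissions. Positions are from GENCODE 29 on GRCh38.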

Additional observations from a re-analysis of the deposited data

Results flagged for a closer look

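Single libraries stood apart from the rest of their group in 11 of 138 sets of values (the 4 FRWI or the 8 control libraries, for each of 68 named genes and for the total counts), where chance gives about 5%. In the FRWI group FRWI 3 was high for BRIP1 (2.12 CPM) and PSAT1 (50.7 CPM), and FRWI 4 was high for ANXA2 (1880.0 CPM). Among the controls, control 7 was high for CA9 (162.0 CPM), LAP3 (601.0 CPM) and CCN2 (485.0 CPM) and low for FAM229B (2.37 CPM). Control 2 was high for MON2 (7.08 CPM) and low for HSPA5 (1520.0 CPM), and control 5 was low for BEX2 (2.45 CPM) and HBEGF (22.8 CPM). These CPM are rounded to 3 digits.

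Of the 68 named genes 53 differed between FRWI and the mean of the 15 other sites by edgeR's test of that difference. Over all features 835 differed (12.1%). The rule named 6 genes by this same test, and 54 of the 68 were called with the same FRWI libraries. The 53 is therefore largely set by how the genes were chosen. The values are log2 differences of FRWI minus that mean. Higher at FRWI were ANKRD1 (1.22), PIM1 (1.07), LCN15 (0.93), ARFGEF3 (0.91), CCN2 (0.90), APH1A (0.88), NR4A1 (0.87), IPO4 (0.80), AKR1B10 (0.78), C1QBP (0.78), MADD (0.77), ANPEP (0.74), IRF2BPL (0.69), PPL (0.67), GPR146 (0.66), CA9 (0.63), EDN1 (0.60), FRAT2 (0.60), GLUL (0.60), LYZ (0.58), JUND (0.52), LAP3 (0.52), RAB5C (0.52), HAMP (0.49), HSPA5 (0.49), ANXA2 (0.47), PGAM1 (0.45), NR5A2 (0.44), FOXA1 (0.39), MKI67 (0.38), AXIN2 (0.30), ASAP1 (0.23) and PLIN2 (0.21). Lower at FRWI were JRKL (-1.79), KRCC1 (-1.54), CFAP70 (-1.14), BRIP1 (-1.08), C1RL (-1.001), BEX2 (-0.96), NAP1L5 (-0.95), AMDHD1 (-0.92), C9orf116 (-0.92), ERCC6L (-0.89), DYSF (-0.88), MON2 (-0.85), AMY2A (-0.77), GPD1 (-0.65), PSAT1 (-0.65), GBP1 (-0.55), BAAT (-0.48), COL6A1 (-0.43) and MT1M (-0.41). Both comparisons share the FRWI libraries. A difference from the mean of the other sites need not be particular to FRWI. JRKL was 1.44 CPM at FRWI, and 4 other site means were lower, down to 0.989 CPM at LRMN. PIM1 was 35.3 CPM at FRWI, 37.8 CPM at GRNY and 42.1 CPM at LRMN, with 13 site means below FRWI. HAMP was 21.1 CPM at FRWI, above 10 of the 15 other means, which ran from 1.28 CPM at LRMN to 26.5 CPM at VROH. Without FRWI 4 the number of all features that differed from the other sites was 243, and without FRWI 2 it was 270.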

How the results depend on the processing

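The number of genes called between FRWI and the controls (151) was 5 with all 71 libraries, 23 with VROH 2 alone left out, 274 with the 12 libraries alone, 284 by DESeq2, 65 without the filter on low counts (11 higher and 54 lower), and 50 without both FRWI 1 and control 1. It was 162 with RLE scaling, 154 with thinned controls and 152 with FRWI 2 to FRWI 4 and the controls alone, of which 150, 140 and 82 were among the 151. Single omissions gave 10 (without FRWI 2) to 295 (without FRWI 3). Against the mean of the other sites (835) the counts were 52 with all 71 libraries, 256 with VROH 2 alone left out, 908 by DESeq2, 824 with RLE scaling and 539 without the filter, and single omissions of FRWI libraries gave 243 to 1038. The cause of these shifts was not tested. With the replicate number as a block 40 genes (39 of them among the 151) and 643 genes were called. Deviations of FRWI and control libraries with the same number correlated at 0.787, -0.0852, 0.479 and 0.531 for numbers 1 to 4. FRWI 1, FRWI 3 and FRWI 4 each correlated best with the control of their own number and FRWI 2 with control 6 (0.331). The labels name nothing that a number shares, and 1 pair was not above 0.1, so the numbers were not taken as a pairing. Leaving out VROH 2 alone, FRWI 1 with control 1, and FRWI 1 from the 12 libraries were chosen after seeing the data. Among the 68 named genes 22 values in 5 genes changed sign, none of them called. ALB was -0.081 with FRWI 2 to FRWI 4 and the controls alone, -0.0786 without FRWI 1 and control 1, and -0.0708 to 0.172 over single omissions. CCN1 was 0.163 with the replicate block, 0.246 and 0.162 under the same 2 settings, and -0.225 to 0.244 over omissions. CPT1A was -0.191 and -0.126, and -0.183 to 0.33. HAMP was -0.00378 with the 12 libraries alone, -0.0354 without the filter, -0.00582 without FRWI 1 and control 1, and -0.0647 to 0.0778. HMOX1 was -0.0218 to 0.11 over omissions. Depth limits the scarce genes most, FRWI 3 and FRWI 4 having 4.45 and 3.79 M counts, and a gene not called may have changed by less than could be detected.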
